A study of Drosophila melanogaster with 30 samples.

Results

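Genes for 10 transcription factors that set the identity of the fly eye and of its photoreceptor types were followed in nuclear RNA. The nuclei were enriched for outer photoreceptors, and RNA of markers of other cell types was counted too. The genes are oc, gl, Pph13, so, eya, hth, salm, salr, dve and ss, 10 of the 17807 gene rows counted. They were taken by name, with earlier results of these data known. The nuclei came from male Drosophila melanogaster at day 30, kept at 25 C in 12 h of light and 12 h of dark. Nuclei were immunoenriched before RNA extraction. Every group carried Rh1-GFPKASH and Rh1-Gal4, and Gal4 drives a short hairpin RNA (shRNA) in the cells that use the Rh1 promoter. The 9 knockdown groups are called by the gene that their shRNA names: Spt5, dom, Trl, Top1, Cdk12, TH1, cnc, Spt6 and Taf1. The control shRNA names LexA, which comes from bacteria. Each of the 10 groups had 3 libraries, labelled as biological replicates. The Rh1 promoter is active in differentiated outer photoreceptors and not in the progenitors of the eye. In the Spt5, Spt6, TH1, Cdk12, Taf1 and Top1 groups the genotype labels of the later replicates carry other gene numbers than their titles (Spt5 replicate 2 reads sh-Spt6 and Spt5 replicate 3 sh-Spt7), and groups were taken from the titles.

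The eye field is specified by a network of retinal determination genes. In that network so encodes a homeodomain protein that binds DNA, eya its coactivator, and hth a homeodomain protein of the undifferentiated progenitors that is later kept in inner photoreceptors of the dorsal rim of the eye. As cells become photoreceptors, the zinc finger factor Glass (gene gl) and the homeodomain factors Orthodenticle (oc) and Pph13 turn on genes of the rhabdomere and of the light response. The subtypes are then set apart: the zinc finger factors of the spalt pair, salm and salr, give inner photoreceptors (R7 and R8) their identity, Spineless (ss) chooses one R7 type, and Defective proventriculus (dve) keeps inner rhodopsins off in outer photoreceptors. Outer photoreceptors express the rhodopsin Rh1 (gene ninaE), and inner ones Rh3, Rh4, Rh5 or Rh6.

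Positions are those of the reference annotation for BDGP6, and each gene codes for protein. The gene oc (FBgn0004102) lies on chromosome X from 8630159 to 8650681 on the minus strand. On arm 2L, Pph13 (FBgn0023489) runs from 577486 to 579549 on the plus strand and eya (FBgn0000320) from 6527447 to 6546976 on the minus strand. The neighbours salr (FBgn0000287, 11358873 to 11373636, plus strand) and salm (FBgn0261648, 11434311 to 11445614, minus strand) are on the same arm. On arm 3R lie hth (FBgn0001235, 10507561 to 10639568), ss (FBgn0003513, 16374434 to 16403690) and gl (FBgn0004618, 18367927 to 18372738), each on the minus strand. On arm 2R lie so (FBgn0003460, 7419350 to 7434872) and dve (FBgn0020307, 22243963 to 22286469), both on the plus strand. The exons of hth share 207 bases with asRNA:CR44018 on the other strand, which itself had 27 to 222 counts per library. The strand setting of the counting was not given, so reads in that stretch could not be assigned to either with certainty. The 4 small genes within so on the other strand share no exonic base with it.

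Gene counts per library lay between 4064250 and 18024440. Reads outside annotated features ran from 55.4 to 171.7 per 100 gene counts. The files of Spt5 and Cdk12 had another layout and more multiply aligned reads, 59.2 to 94.5 per 100 gene counts against 12.8 to 33.0 in the other 24 libraries. None of the 9 targeted genes was called lower by edgeR in its own group than in LexA, with log2 fold changes of -0.41 to 0.67, so these files give no check of the knockdown. Spt5 replicate 3 stood apart from Spt5 replicates 1 and 2 in most of the values below and lay within the range of the other groups for all 10 genes. The targeted gene gives no check of its label, so what this library holds was not established. The calls of the 10 genes and of the lists are given with and without it, while marker calls, overlaps and group means include it.

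All 10 genes passed the filter on low counts and were tested. In the LexA control gl, oc, Pph13, so and dve had the most RNA per length of exon, in counts per 1000000 counts (CPM) per kilobase. The level was 222 ± 40.9 for gl, 161 ± 11.3 for oc, 88.9 ± 13.4 for Pph13, 68.1 ± 13.7 for so and 52.4 ± 2.90 for dve (SD, n = 3 each). Lower levels followed, with 14.0 ± 0.28 for hth, 8.87 ± 0.92 for eya, 3.22 ± 0.35 for salr, 2.34 ± 0.79 for salm and 1.60 ± 0.12 for ss. The libraries of neighbours in this order overlapped for Pph13 with so and for salr with salm, and for no other pair of neighbours. Nuclear RNA holds introns, and whether they were counted was not given, so the order rests on exon lengths alone. The lowest count behind any value of the 10 genes was 37 reads, for ss in Top1 replicate 2.

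**Figure D1:**
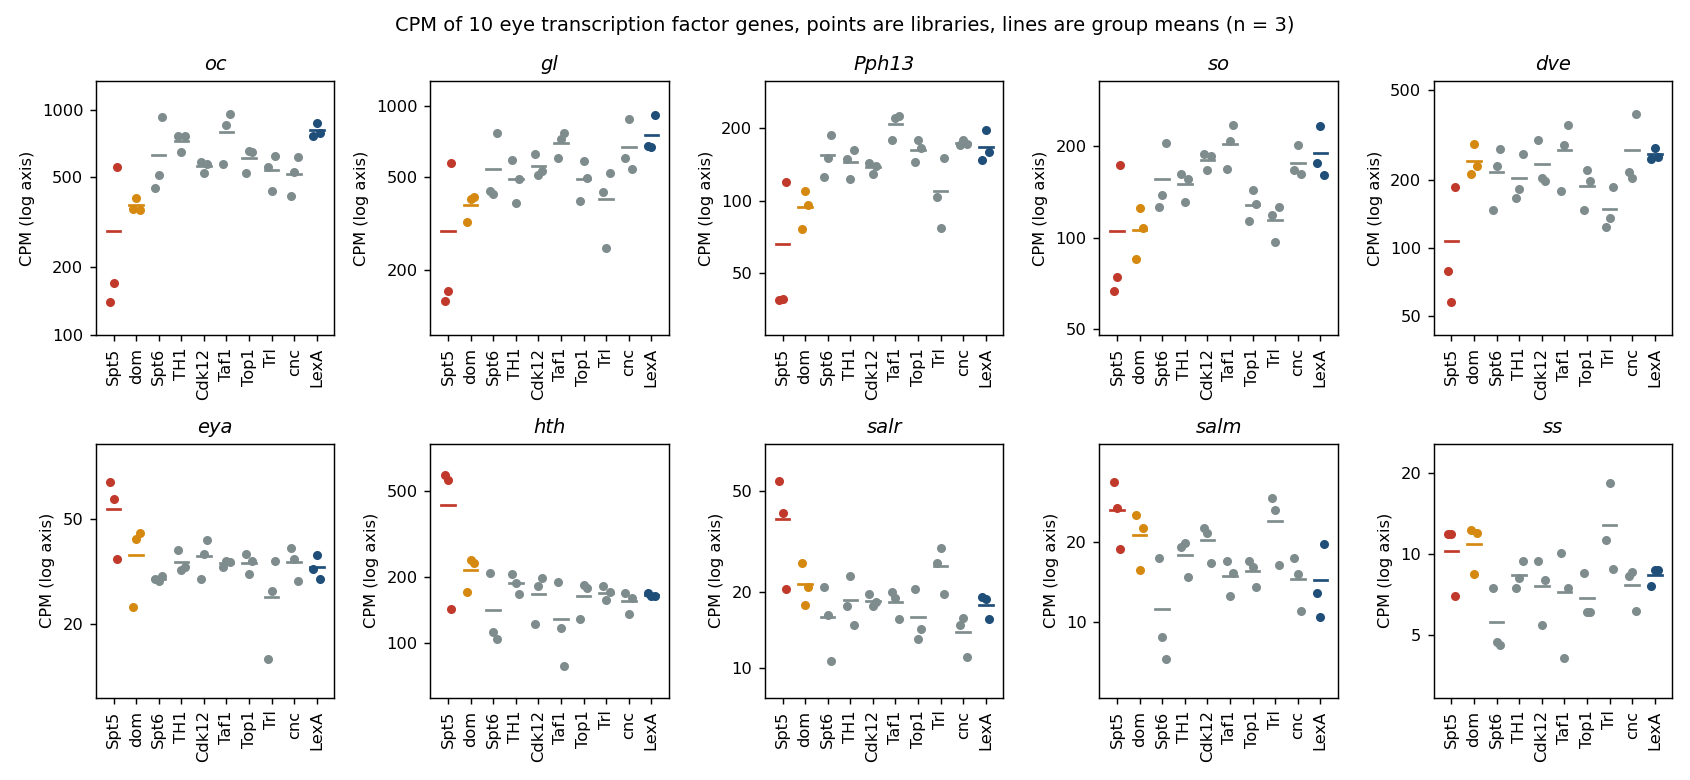
CPM of each gene (vertical axis, log scale) in all 30 libraries by group (horizontal axis), with points for libraries and lines for the group means (n = 3). Spt5 replicates 1 and 2 lie below every other library for oc, gl, Pph13, so and dve and above every other library for hth, salr and eya, while Spt5 replicate 3 lies within the range of the other groups.

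In Spt5 against LexA, 9 of the 10 genes were called, 5 lower and 4 higher (edgeR's quasi-likelihood test, adjusted p under 0.05). Of all 14888 genes tested, 16.5% were called in this comparison, 11.0% higher and 5.42% lower. The genes that fell were oc, gl, Pph13, dve and so. Those that rose were hth, salr, salm and eya, and ss was not called.

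The lowest fold change was that of oc, which is needed for the shape of the rhabdomere and for the choice of rhodopsin. It stood at 139, 170.2 and 558 CPM in Spt5 and at 768, 875 and 786 CPM in LexA, so that every Spt5 library lay below every LexA library. The log2 fold change was -1.49 (SE 0.34, adjusted p 0.0049). Its partner Pph13, a regulator of phototransduction genes, stood at 38.8, 39.1 and 119.6 CPM in Spt5 and at 147, 195 and 159 CPM in LexA (-1.34, SE 0.30, adjusted p 0.0043). Again no Spt5 library reached the LexA range. The gene gl, whose product Glass is required for photoreceptor differentiation, had 149, 163 and 575 CPM in Spt5 and 678, 669.8 and 914 CPM in LexA (-1.35, SE 0.36, adjusted p 0.011).

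The repressor gene dve had 78.5, 57.4 and 186 CPM in Spt5 and 248, 275 and 253 CPM in LexA (-1.27, SE 0.34, adjusted p 0.011). All Spt5 libraries were below LexA here too. The retinal determination gene so fell as well, with 67.0, 74.1 and 174 CPM in Spt5 and 176, 233 and 160.4 CPM in LexA (-0.86, SE 0.26, adjusted p 0.024). For so the groups overlapped, since Spt5 replicate 3 was above LexA replicate 3.

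Among the genes that rose, hth moved most, with 592, 560.5 and 143 CPM in Spt5 and 169.9, 165 and 164 CPM in LexA (1.38, SE 0.35, adjusted p 0.0087). Spt5 replicates 1 and 2 were far above LexA and Spt5 replicate 3 was below every LexA library. The gene salr had 55.1, 41.0 and 20.5 CPM in Spt5 and 19.1, 18.8 and 15.6 CPM in LexA (1.12, SE 0.28, adjusted p 0.0079). It was the single gene of the 10 whose Spt5 libraries all lay above LexA.

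Its neighbour salm had 33.8, 26.9 and 18.9 CPM in Spt5 and 12.8, 10.5 and 19.7 CPM in LexA (0.89, SE 0.30, adjusted p 0.041). The coactivator gene eya had 68.7, 59.3 and 35.1 CPM in Spt5 and 32.3, 36.3 and 29.6 CPM in LexA (0.73, SE 0.26, adjusted p 0.048). For both the groups overlapped through Spt5 replicate 3. The selector gene ss was lowest in level, with 11.8, 11.8 and 7.0 CPM in Spt5 and 7.6, 8.7 and 8.7 CPM in LexA (0.30, SE 0.31, adjusted p 0.65). In all, 5 of 10 genes had Spt5 libraries that did not overlap LexA, against 22.3% of all genes tested.

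**Figure D2:**
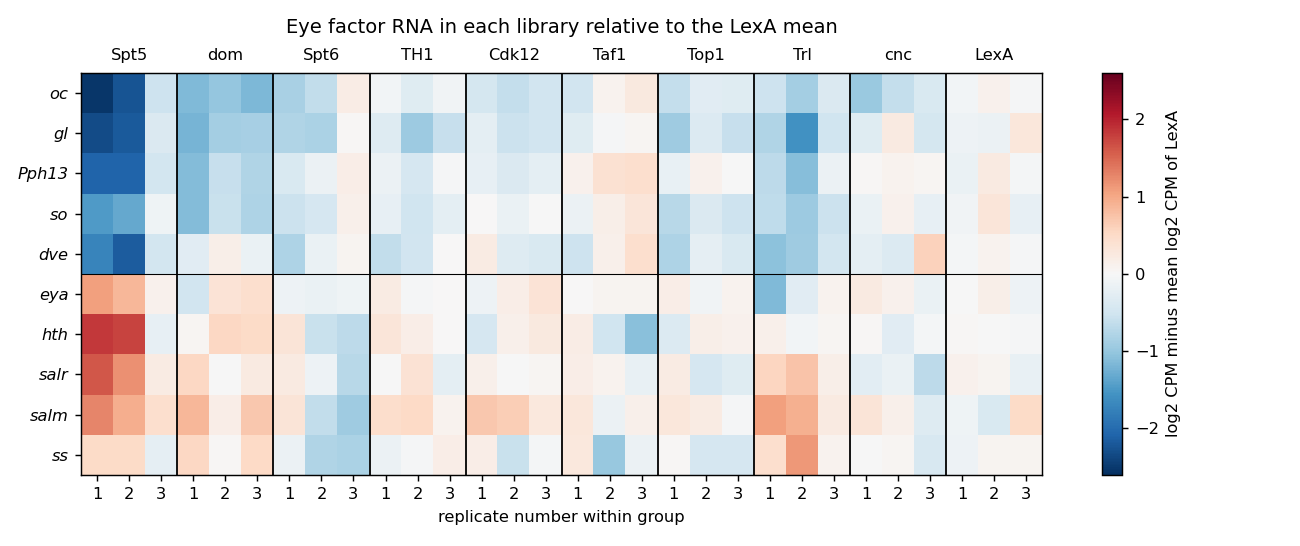
Log2 CPM of each gene (rows) in each library (columns, by group and replicate number) minus its mean in LexA, on a colour scale from blue (lower) to red (higher). The first 5 rows were called lower and the next 4 higher in Spt5, and the colours are strong in Spt5 replicates 1 and 2 and pale in Spt5 replicate 3.

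These calls rested on Spt5 replicates 1 and 2. Without Spt5 replicate 3 the same 9 genes were called and the changes were larger, with log2 fold changes of -2.39 for oc, -2.27 for gl, -2.10 for Pph13, -1.92 for dve and -1.42 for so. Those of hth, salr, salm and eya were 1.80, 1.43, 1.09 and 0.97, and ss remained uncalled (0.51, adjusted p 0.31). In that fit 3726 of 15411 genes were called in all. Without Spt5 replicate 1 none of the 10 was called, and 244 genes were called in all, against 2450 with every library. Without Spt5 replicate 2 the gene salr alone was called, and 593 of 15484 genes in all. Leaving out LexA replicate 1, 2 or 3 gave 7, 6 and 8 calls, with 1854, 1089 and 1906 genes called in all. Of the calls, eya was lost each time, salm without LexA replicate 1 or 2 and the gene so without LexA replicate 2. The call of eya was also lost with no filter or with a covariate for reads outside features, and that of salm with no filter or with DESeq2 size factors. With Cdk12, the other group of the same file layout, as reference, 4 of the 10 were called, and 1003 of 14888 genes in all. The 4 were Pph13 (-1.06) and dve (-1.12), lower, and hth (1.36) and salr (1.07), higher. A fit of the 6 Spt5 and LexA libraries alone called none of the 10, and 2 genes in all.

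Markers of cell types moved along with these genes. The summed level of 11 outer photoreceptor markers was 24019.5, 24334.3 and 64619.2 CPM in Spt5 and 80922.2 to 87752.2 CPM in LexA, and 8 of the 11 were called lower. The 4 rhodopsins of inner photoreceptors summed to 1015, 958 and 365 CPM in Spt5 and to 282 to 326 CPM in LexA, and 4 of 4 were called higher. Other neuron markers summed to 1076, 913 and 312 CPM in Spt5 and to 236 to 325 CPM in LexA (6 of 7 higher).

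Glial markers summed to 1117, 977 and 448 CPM in Spt5 and to 372 to 621 CPM in LexA (5 of 8 higher). Among them loco had 1 Spt5 library above and 2 below every LexA library, and nrv2 had 1 below. Those of cone, pigment and corneal cells summed to 820.0, 708 and 360 CPM in Spt5 and to 339 to 384 CPM in LexA (5 of 8 higher). This list did not rise as a whole: ca had 3 Spt5 libraries below every LexA library, cn had 2 and st had 1. Fat body and hemocyte markers summed to 5350.6, 5082 and 1670.3 CPM in Spt5 and to 1168 to 1649.9 CPM in LexA (5 of 8 higher). Muscle markers, at 5270.4, 6644 and 3147 CPM in Spt5 and 2824 to 4808 CPM in LexA, had none of 8 called. Of all 54 markers only Fbp2 was at 0 in any library, in 8 of 30. The part of these cell types in the results on hth, salm, salr and eya was not tested, and in bulk nuclei fewer cells of a type and less RNA per cell cannot be told apart.

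The genes were also set against the outer photoreceptor markers of the same library. On this scale, chosen after the values were seen, the mean log2 CPM of the 11 markers is subtracted and the LexA mean is set to 0. The markers themselves were at -1.95, -1.84 and -0.36 in Spt5, so the subtraction by itself raises every gene in these libraries. Relative to them Pph13 was at -0.13, -0.24 and -0.11 in Spt5 and overlapped LexA (-0.14 to 0.14), and gl (-0.37, -0.35 and -0.02) and dve (0.24, -0.33 and -0.12) overlapped LexA as well. The gene oc was lower in every Spt5 library (-0.58, -0.41 and -0.18) than in LexA (-0.03 to 0.02), and so was higher (0.47, 0.50 and 0.25) than in LexA (-0.17 to 0.22).

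The same scale set hth at 3.79, 3.59 and 0.14 in Spt5 and at -0.11 to 0.07 in LexA. The other genes that rose were at 3.58, 3.03 and 0.56 (salr), 3.23, 2.79 and 0.80 (salm) and 3.02, 2.70 and 0.46 (eya) in Spt5. That these genes lie above LexA on this scale follows in part from the fall of the markers: hth in Spt5 replicate 3 was below every LexA library in CPM. The markers include chp and ninaE. These relative levels are a description with no test.

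**Figure D3:**
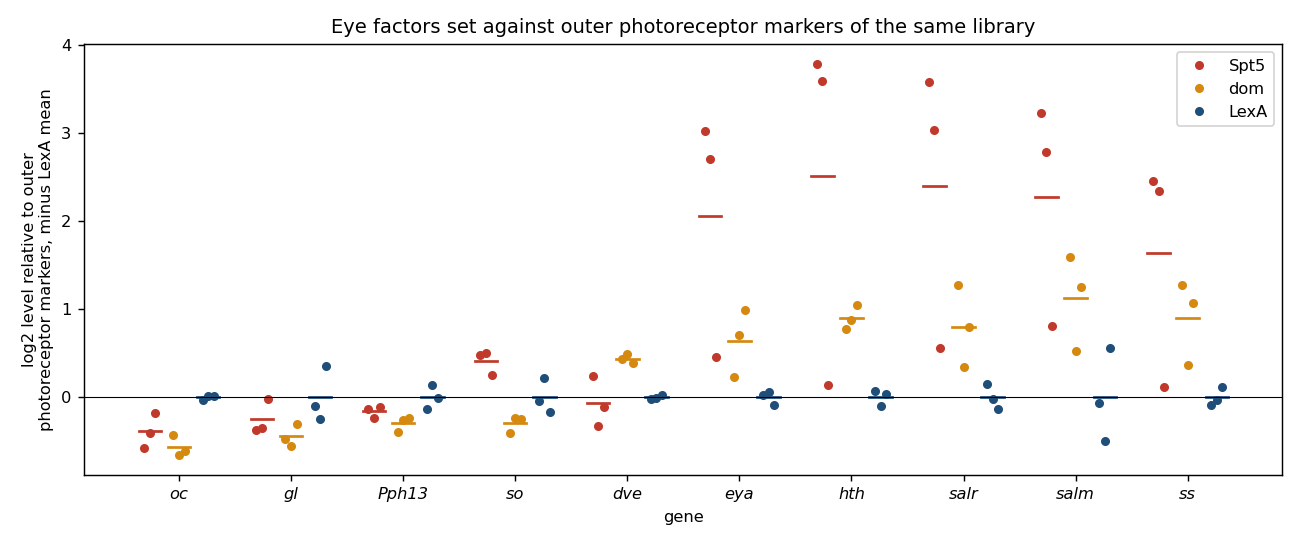
Log2 level of each gene (horizontal axis) relative to the mean of 11 outer photoreceptor markers of the same library, minus the LexA mean (vertical axis), with points for the libraries of Spt5, dom and LexA and lines for group means (n = 3). In Spt5 replicates 1 and 2, hth, salr, salm, eya and ss lie 2.34 to 3.79 above the LexA mean, while oc, gl and Pph13 lie below it.

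In dom against LexA, 2 of the 10 genes were called, both lower (10.4% of all genes called, 893 of these 1543 lower). They were oc, at 363, 404 and 359 CPM in dom and 768, 875 and 786 CPM in LexA (-1.11, SE 0.34, adjusted p 0.032), and so, at 85.1, 125 and 107 CPM in dom and 176, 233 and 160.4 CPM in LexA (-0.84, SE 0.26, adjusted p 0.038). In both, all dom libraries lay below LexA. The coefficient of variation between replicates of oc was 6.56% in dom and 80.7% in Spt5.

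The genes gl and Pph13 had lower values in dom without an edgeR call. The gene gl had 323, 402 and 412 CPM in dom and 678, 669.8 and 914 CPM in LexA (-0.99, SE 0.36, adjusted p 0.078). Pph13 had 76.1, 109.6 and 95.8 CPM in dom and 147, 195 and 159 CPM in LexA (-0.83, SE 0.29, adjusted p 0.071). Their libraries did not overlap LexA. With DESeq2 all 4 of these genes were called lower in dom (adjusted p 0.0096 for oc, 0.0093 for so, 0.026 for Pph13 and 0.029 for gl). DESeq2 called 2422 in all of the 10268 genes to which it gave an adjusted p in dom.

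The repressor gene dve stood at 211, 286 and 229 CPM in dom and at 248, 275 and 253 CPM in LexA (-0.09, SE 0.33, adjusted p 0.92). The genes salm (0.57), ss (0.39), hth (0.37), salr (0.27) and eya (0.15) had log2 fold changes within 2 SEs of 0 and no call, with adjusted p from 0.26 to 0.81. In dom 5 of 10 genes did not overlap LexA, against 28.9% of all genes. The median log2 fold change over all genes was 0.21 in this comparison.

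The calls in dom depended on single libraries. Leaving out any of the 3 dom libraries, or LexA replicate 1 or 2, left none of the 10 called. Without LexA replicate 3 only so was called. Calls over all genes fell too, from 1543 to 1143, 851 and 818 without dom replicate 1, 2 and 3. They fell to 973, 648 and 1215 without LexA replicate 1, 2 and 3, with 15296 to 15507 genes tested per fit. Over these fits the log2 fold change of oc stayed between -1.14 and -0.97 and that of so between -0.94 and -0.66. Relative to the outer photoreceptor markers, which were at -0.73, -0.34 and -0.55 in dom, oc was at -0.43, -0.66 and -0.62, gl at -0.48, -0.55 and -0.30 and so at -0.41, -0.23 and -0.25. The outer photoreceptor markers summed to 54572.1, 69958.7 and 60798.5 CPM in dom and to 80922.2 to 87752.2 CPM in LexA, with 2 of 11 called lower. Other neuron markers summed to 336, 541 and 490 CPM in dom, all above the 236 to 325 CPM in LexA, with 2 of 7 called higher. In dom 1 of 8 glial markers was called higher and 2 of 8 markers of cone, pigment and corneal cells lower. The part of these cell types in the dom results was not tested. On the relative scale dve was at 0.44, 0.49 and 0.38 in dom and at -0.02 to 0.03 in LexA.

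**Figure D4:**
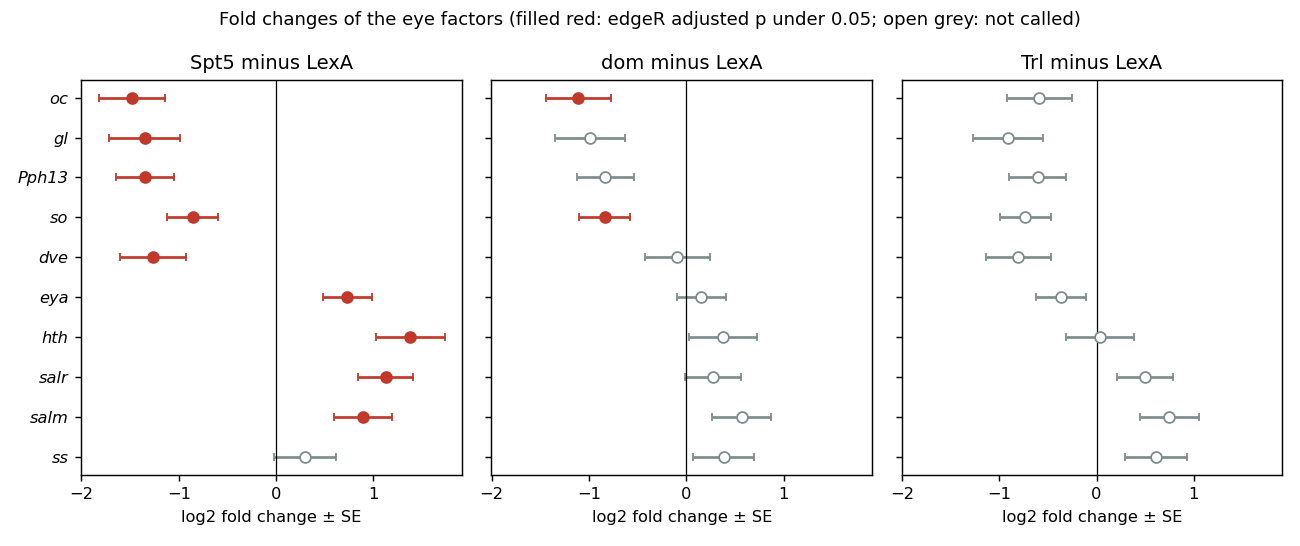
Log2 fold change with its SE (horizontal axis) of each gene in Spt5, dom and Trl against LexA (n = 3 per group), filled where called by edgeR. In Spt5, 9 genes are called, in dom oc and so, and in Trl none.

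Spt5 and dom were also compared directly, a comparison added after the values were seen. Of the 10 genes dve alone was called, lower in Spt5 (-1.18, SE 0.34, adjusted p 0.028), where 8.19% of all genes were called, 3.43% higher and 4.76% lower. The differences for salr (0.85, adjusted p 0.054) and hth (1.00, adjusted p 0.075) were not called, and that of so was -0.02 (SE 0.26). Without Spt5 replicate 3 the genes oc (-1.28), Pph13 (-1.27), gl (-1.28) and dve (-1.83) were lower in Spt5 than in dom, and hth (1.42), salr (1.16) and eya (0.81) higher. In that fit 2849 of 15411 genes were called in all. Without Spt5 replicate 1 or 2, or dom replicate 2, none of the 10 was called, and without dom replicate 1 salr was called in place of dve. These fits called 653, 624, 705 and 821 genes in all, in this order.

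In Trl against LexA none of the 10 genes was called by edgeR, 5 had an unadjusted p under 0.05, and DESeq2 called none (2.55% of all genes called by edgeR, 94 higher and 285 lower). The gene gl had 433, 249.7 and 520.4 CPM in Trl and 678, 669.8 and 914 CPM in LexA (-0.91, SE 0.36, adjusted p 0.12). The gene so was at 119, 96.6 and 126 CPM in Trl and 176, 233 and 160.4 CPM in LexA (-0.73, SE 0.26, adjusted p 0.091). For both, all Trl libraries lay below LexA. The outer photoreceptor markers summed to 60367.1, 41165 and 67665 CPM in Trl and to 80922.2 to 87752.2 CPM in LexA, with none of 11 called (median log2 fold change -0.76). Reads outside features were at 134, 172 and 101 per 100 gene counts in Trl and at 79.3 to 92.4 in LexA. With a covariate for these reads in the fit, the log2 fold changes in Trl were -1.04 for gl, -0.76 for so, -0.71 for oc, -0.69 for dve and -0.60 for Pph13. Those of salm, salr, ss, hth and eya were 0.43, 0.31, 0.30, 0.29 and -0.03. None of the 10 was called, and 65 genes were called in all, against 379 without the covariate. Whether these reads caused the Trl values was not tested.

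The gene dve was at 123, 135 and 185 CPM in Trl (-0.80, SE 0.34, adjusted p 0.14) and salm at 29.3, 26.5 and 16.4 CPM (0.75, SE 0.30, adjusted p 0.13). The gene ss reached its highest level of the series in Trl, 18.3 CPM in Trl replicate 2, with 11.3 and 8.8 CPM in the others (0.61, SE 0.32, adjusted p 0.21). It was called higher in Trl when the mean of the other 8 knockdowns was the reference (0.70, adjusted p 0.024). With that reference 4654 of 14888 genes were called in all, and ss was the only 1 of the 10. In Trl 6 of 10 genes did not overlap LexA, against 37.3% of all genes. Scaling by DESeq2 size factors moved the median of all genes in Trl to 0.39, against 0.21 with the trimmed mean of M values, and the split of calls to 120 higher and 98 lower. No gene of the 10 changed sign under that scaling in Trl.

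In the other 6 groups no eye factor was called by edgeR or by DESeq2, with 0.107% of all genes called in Spt6, 0.202% in TH1, 0.195% in Cdk12, 0.148% in Taf1, 0.430% in Top1 and 0.289% in cnc. Over these 60 values 1 had an unadjusted p under 0.05, and the log2 fold changes ran from -0.64 (oc in cnc) to 0.51 (salm in Cdk12), with 53 of 60 within 0.5 of 0. The smallest adjusted p was 0.57. Genes whose libraries did not overlap LexA numbered 4 of 10 in Top1 (17.0% of all genes), 3 in Cdk12 (18.6%), 2 in TH1 (14.6%), 1 in Spt6 (13.2%), 1 in cnc (14.1%) and 0 in Taf1 (14.4%). In cnc the gene was oc, with 414, 529 and 616 CPM in cnc and 768, 875 and 786 CPM in LexA (adjusted p 0.70). These comparisons share the LexA libraries, in which oc and gl had their highest group means of the series.

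Over all 10 groups together, 7 of the 10 genes differed by edgeR's test with no direction, against 29.1% of all genes. These were salr (adjusted p 0.0042), Pph13 (0.0050), hth (0.0065), so (0.019), oc (0.020), salm (0.024) and dve (0.04998). By edgeR gl (0.061), eya (0.077) and ss (0.077) were not called. DESeq2's joint test of the 10 groups called all 10 genes, and 7085 of 14887 genes in all. The gene dve, at the threshold, was called in 7 of the 30 fits that left out 1 library. Without Spt5 replicate 1 only Pph13 and so remained, without Spt5 replicate 2 Pph13, salr and so, and without Spt5 replicate 3 all 10 were called. Of all genes, 2669, 2846 and 5663 were called in these fits, in this order. Without the 6 libraries of Spt5 and Cdk12 the called genes of the 10 were oc, Pph13, gl and so, with 3195 of 14334 genes called in all.

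Spt5 had the lowest group mean for oc, Pph13, dve, gl and so and the highest for hth, salr, salm and eya. When the 10 groups were ordered by mean, neighbours overlapped in all 9 pairs for 8 of the genes. The exceptions were 1 pair each for oc and for Pph13. Such pairs were not counted over all genes tested. For hth and oc the overlap of Spt5 with its neighbour came from Spt5 replicate 3, since the highest hth library outside Spt5 was at 241 CPM and the lowest oc library at 359 CPM. Single libraries spanned from 139 to 959 CPM for oc, from 77.8 to 592 CPM for hth and from 38.8 to 223 CPM for Pph13. The hth minimum was in Taf1 replicate 3 and the oc and Pph13 maxima in the same library.

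Other genes of eye fate were taken as 4 lists. Of 12 partners in retinal determination 3 were called higher and 1 lower in Spt5 (median log2 fold change 0.52, against 0.05 over all genes). The nuclear factor gene dac (1.23, SE 0.33, adjusted p 0.011), the homeobox gene Optix (0.97, SE 0.34, adjusted p 0.049) and danr (1.57, SE 0.51, adjusted p 0.035) rose, and the Pax gene eyg fell (-0.88, SE 0.28, adjusted p 0.031). Of 16 factors that recruit photoreceptors 4 were higher (median 0.35). They were the nuclear receptor gene svp, at 113, 72.5 and 29.1 CPM in Spt5 and 24.4, 24.4 and 32.2 CPM in LexA (1.41, SE 0.32, adjusted p 0.0050), the adaptor gene phyl (2.01, SE 0.44, adjusted p 0.0042), the R7 factor gene pros (1.27, SE 0.33, adjusted p 0.0091) and the ETS factor gene pnt (0.95, SE 0.33, adjusted p 0.048).

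Of 12 genes of the subtype switch and of eye regions 1 was lower in Spt5 (median -0.13). It was the kinase gene wts, which in R8 cells favours Rh6 over Rh5, at 209, 215 and 412 CPM in Spt5 and 465, 522 and 432 CPM in LexA (-0.76, SE 0.24, adjusted p 0.027). It fell in dom too (-0.78, SE 0.24, adjusted p 0.035), together with kibra, an upstream member of the same pathway (-0.81, SE 0.22, adjusted p 0.019). The call of wts in dom was lost when any 1 of the 3 dom or 3 LexA libraries was left out, and that of kibra without any of the dom libraries or without LexA replicate 2. Of 8 targets, the rhodopsins and the rhabdomere gene chp, 6 were higher and 1 lower in Spt5 (median 1.30). Rh6, which oc represses and Pph13 activates, was at 218, 198 and 67.5 CPM in Spt5 and 54.3, 43.0 and 43.2 CPM in LexA (1.78, SE 0.34, adjusted p 0.0029).

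Rh7 (1.82), Rh2 (1.64), the rhodopsin of the ocelli, and Rh3 (1.35), which dve represses and oc activates, were also higher in Spt5. In dom none of the 12 partners, 16 recruitment factors and 8 targets was called (medians -0.14, 0.48 and 0.55), and the 12 subtype and region genes had a median of -0.29, where the median over all genes was 0.21. The 2 calls over the 4 lists in dom became 7 with DESeq2 and 11 in the fit of the 2 groups alone. They became 6 without the Spt5 and Cdk12 libraries and 5 with the covariate for reads outside features. With DESeq2 size factors, no filter or the replicate block there were 4 each. The number of calls over all genes in dom rose as well, from 1543 of 14888. DESeq2 called 2422 of 10268 genes and the fit of the 2 groups alone 2565 of 11763. Without the Spt5 and Cdk12 libraries 2100 of 14334 were called. The covariate gave 2237, DESeq2 size factors 1894 and the replicate block 1663, each of 14888, and no filter gave 1753 of 17021. The target called lower in Spt5 was chp (-1.42, SE 0.39, adjusted p 0.013), named after its values were seen. ninaE had log2 fold changes of -0.48 in Spt5 (adjusted p 0.11), 0.24 in dom (adjusted p 0.56) and 0.97 in Top1, where it was called (adjusted p 0.020). The call of ninaE in Top1 was lost without Top1 replicate 2 or without any 1 of the LexA libraries. No other gene of the 4 lists was called outside Spt5 and dom. Other settings called 1 list gene in Cdk12 (the fit of the 2 groups alone, 106 of 11738 genes in all). In Taf1 they called 1 (against the mean of the other 8 knockdowns, 397 of 14888 in all). In Trl they called 3 with DESeq2 (1008 of 13732 in all) and 2 with the replicate block (760 of 14888). The fit of the 2 groups alone called 4 in Trl (1184 of 12026 in all). Without the Spt5 and Cdk12 libraries 1 was called in Trl (373 of 14334 in all). The lists had 5 called in Trl without Trl replicate 3 (1190 of 15461 in all) and 14 against the mean of the other 8 knockdowns. With that reference 4654 of 14888 genes were called in Trl in all. The 4 lists together had 16 genes called in Spt5, where 2450 genes were called in all. Without Spt5 replicate 1, 2 or 3 they had 2, 5 and 24 (244, 593 and 3726 in all). They had 9 to 10 without 1 of the LexA libraries (1089 to 1906 in all). The fit of the 2 groups alone called 0 list genes and 2 genes in all. For each of the 16 genes, replicate 3 lay closer to the LexA mean than replicates 1 and 2 did. Rh3, Rh4, Rh5 and Rh6 are also the inner photoreceptor markers, and chp and ninaE are among the outer ones.

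The profiles of the 10 genes over the 30 libraries fell into like and unlike pairs. Likeness was measured as the root mean square difference between log2 CPM profiles, each centred on its own mean. The nearest pairs were Pph13 with gl (0.25), gl with so (0.27), oc with Pph13 (0.27) and Pph13 with so (0.29), and outside oc, gl, Pph13 and so the nearest pair was salm with salr (0.33). The most distant were oc with hth (1.13), Pph13 with hth (1.12) and gl with hth (1.10). In Spt5 replicates 1 and 2 log2 CPM minus the LexA mean was -2.54 and -2.25 for oc and 1.83 and 1.75 for hth. Both genes stood furthest from the LexA mean in these libraries, which therefore weigh most in the distance of oc with hth.

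Among genes of similar level the 3 most like gl were MICU3 (0.17), Gbeta76C (0.19) and Pli (0.21), set against a root mean square of 0.60 for gl about its own mean. Those of so were Mlf (0.13), wts (0.16) and homer (0.16), those of hth Rbfox1 (0.18), ct (0.22) and fus (0.22), and those of oc Kul (0.21), BuGZ (0.27) and PIP5K59B (0.28). Pph13 was nearest to tadr, Fbxl4 and fipi (0.20 to 0.21), dve to sdk, RalGPS and peb (0.24), and eya to PolrMT, Aps and ATP7 (0.19 to 0.21). The nearest genes were yuri, Tsp66E and ChAT for salm (0.23 to 0.27), orb, Btk and Cad86C for salr (0.23) and elg1, tj and ple for ss (0.28 to 0.32). Many genes of similar level lay within a gene's own root mean square, 65.3% of 1004 for gl, 59.5% of 918 for oc and 47.6% of 2134 for Pph13, against 22.2% of 1884 for hth and 5.54% of 3685 for ss. The profiles come from the same 30 libraries, and these values are a description.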

How the data were processed

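Nuclear RNA of 30 libraries, 3 in each of 10 groups, was analysed, with groups taken from the sample titles. Each deposited file held the whole-number read counts per gene of 1 library. The authors made them with Trimmomatic 0.39, HISAT2, HTSeq and the BDGP6 build, per the submitters' processing notes. The annotation release, feature type and strand setting are not given in the sources used here. The summary rows, 51.8% to 74.5% of all reads, and the transgene rows stayed out of library sizes and tests. Symbols matched 17710 of the 17807 gene rows.

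The count test was edgeR's quasi-likelihood test (version 4.0.16, R 4.3.3), two-sided, on 14888 genes that passed the filter by expression (minimum count 10, minimum total 15). Scaling used TMM, the trimmed mean of M values, and a single fit held all 30 libraries. Knockdowns were set against LexA one by one, and the 10 groups were also tested jointly. Adjustment followed Benjamini and Hochberg over all genes tested. Calls were made below an adjusted p of 0.05, and an adjusted p is edgeR's where no other tool is named. The SE was the absolute log2 fold change over the root of F. CPM rest on TMM library sizes, and log2 CPM on a prior count of 2. The procedure was tested on simulated data. P-values measure the spread within groups, between libraries labelled as biological replicates, and that spread is estimated jointly over all 10 groups. So they do not measure the spread of Spt5 alone, where the coefficient of variation of oc was 80.7%, against 7.04% in LexA. Replicates of a group differed by more than sampling noise in all 30 pairs.

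Alternatives were DESeq2 1.42.0, its size factors in edgeR, no filter, a replicate block, a covariate for reads outside features, other references, fits of fewer libraries and leaving out each library. Replicate numbers were not used as pairs. The 10 genes, the lists and the tests were chosen with earlier results of these data known. Named were all 10 genes, up to 4 called genes per list and comparison, ninaE, and the 3 most alike genes within 2 units of average log2 CPM that carry a symbol other than a bare CG or CR number or a noncoding RNA prefix. Sequences are not reported here.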

Additional observations from a re-analysis of the deposited data

Results flagged for a closer look

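Signals in rows that the comparisons do not use lay above LexA in some groups. Multiply aligned reads averaged 76.9 per 100 gene counts in Spt5, 76.2 in Cdk12 and 26.5 in Trl. All 3 libraries of each lay above the LexA range of 17.70 to 21.70, but Trl replicate 3 only narrowly, at 21.73. Reads of the GFP tag averaged 29.9 per 1000000 gene counts in Top1 (33.9, 33.4 and 22.3), against 20.2, 7.93 and 15.7 in LexA. Their part in the results on the eye factors was not tested.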

How the results depend on the processing

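No called value of the 10 genes changed sign under any alternative run. In Spt5, 9 genes were called, against 4 with Cdk12 as reference, 0 in a fit of the 2 groups alone and 0 to 9 when 1 library was left out. In dom, 2 were called, against 4 with DESeq2, 4 in a fit of the 2 groups alone, 4 without the Spt5 and Cdk12 libraries (chosen after seeing the data), 0 with the mean of the other 8 knockdowns as reference and 0 to 1 when 1 library was left out. In Trl, 0 were called, against 1 with the mean of the other 8 knockdowns, where 4654 of 14888 genes were called in all. Over the 10 groups 7 differed, against 4 without the Spt5 and Cdk12 libraries and 2 to 10 when 1 library was left out. With DESeq2 all 10 differed, and 7085 of 14887 genes in all. The reduced fits hold fewer libraries, and otherwise the cause was not tested. The samples share only a replicate number: correlations of same-numbered deviations ran from -0.62 to 0.67 over 135 pairs, and 15 of 30 libraries were on average most like their own number. With the replicate block 9 genes were called in Spt5, 3 in dom (Pph13 added) and 8 over the 10 groups. Calls over all genes ran from 2 to 3309 for Spt5 (2450), from 1663 to 2565 for dom (1543) and from 65 to 4654 for Trl (379) over the other settings, and from 244 to 3726, 648 to 1215 and 34 to 1190 when 1 library was left out. Over all settings the other comparisons ran from 9 to 88 for Spt6 (16), 19 to 82 for TH1 (30), 9 to 119 for Cdk12 (29), 13 to 397 for Taf1 (22), 29 to 204 for Top1 (64) and 20 to 127 for cnc (43). Counts of ss, the lowest of the 10 genes, began at 37 per library.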

Other observations

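Reads of the Gal4 transgene, whose driver is the Rh1 promoter in all groups, were at 894.9, 1057 and 2823 per 1000000 gene counts in Spt5, and at 3501.5, 3463 and 7679 in LexA. All libraries of dom (2779.6, 2634 and 2122) and of cnc (2181, 2685 and 2074) also lay below LexA, and Spt5 replicate 3 was above each of these. In Cdk12 the values were 11032, 6542 and 6484.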
